A study of Mus musculus with 20 samples.

Results

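The cornified envelope and late differentiation genes of mouse epidermis were taken as all rows of the count table whose gene name begins with Lce or Sprr, together with Lor, Ivl, Flg, Flg2, Hrnr, Rptn, Crnn, Crct1, Tgm1, Tgm3, Krtdap, Sbsn, Calm4 and Calml3. One name ending in -ps was dropped. This rule gave 50 of the 25719 genes in the table: 21 Lce genes, 15 Sprr genes and all 14 single genes. At least 1 read was counted for 49 of them, and Lce3a had none in any library. With 3 counts in a library taken as the limit of detection, 46 genes were detected in at least 1 library, 27 in 10 or more and 13 in all 20. The filter on low counts left 21 genes for testing, namely 3 Lce, 6 Sprr and 12 single genes. The other 29 had mean levels from 0 to 0.399 CPM (counts scaled to 1 M per library).

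Keratinocytes leaving the basal layer of the epidermis build the cornified envelope, a sheet of cross-linked protein under the plasma membrane that replaces it as the cell dies. Involucrin (Ivl) forms an early scaffold, loricrin (Lor) is the main filler, the small proline-rich proteins (Sprr) act as flexible cross-bridges and the late cornified envelope proteins (Lce) are added last, while transglutaminases (Tgm1, Tgm3) make the cross-links. Filaggrin and its relatives (Flg, Flg2, Hrnr, Rptn, Crnn) bind keratin filaments and are processed in the outermost living layers. The Sprr genes are also known to be induced in stressed or wounded skin.

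Bulk RNA sequencing was analysed for primary keratinocytes sorted by flow cytometry from the ear and dorsal skin of 20 mice, 5 in each of 4 groups. The knockout (cKO) mice carried floxed alleles of Cyp11b1, which encodes the last enzyme of corticosterone synthesis, and a tamoxifen-inducible Cre driven by the keratin 14 promoter (K14-CreERTam x Cyp11b1 L2/L2). Controls were Cre-negative Cyp11b1 L2/L2 littermates, so every mouse had floxed alleles and every mouse received tamoxifen. The question was how loss of glucocorticoid synthesis in keratinocytes acts when it is induced locally or from within the whole animal. Topical control and topical cKO mice (local in the labels) had 20 µl tamoxifen in ethanol put on the ear and 100 µl on the dry-shaved back on 5 consecutive days. Systemic control and systemic cKO mice were injected into the peritoneum with 100 µl of tamoxifen at 10 mg/ml in oil and ethanol, also on 5 consecutive days, and cells were taken on day 6. Route therefore goes together with vehicle and shaving, and these cannot be told apart. Keratin 14 marks basal keratinocytes, so the deletion is made in that layer and inherited by the differentiating cells that descend from it. Age and days of handling are not given in the sources used here.

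The libraries held 11.6 to 50.1 M counts, and 3 counts in a library equal 0.0729 to 0.264 CPM. Correlations of log levels between libraries of a group ran from 0.932 to 0.986 over genes. Cyp11b1 had counts in 9 libraries and at most 6 in any of them, so its loss was not detectable at this depth. The count of 6 was in topical cKO mouse 5, and systemic cKO mouse 5 had 4. Topical controls had 0 to 5 and systemic controls 0 or 1. Basal keratins were abundant in every library (Krt14 from 24487 to 76082 CPM), whereas the summed levels of marker lists stayed at or below 30.5 CPM for leukocytes, 24.4 for fibroblasts, 23.1 for melanocytes, 3.98 for endothelium, 8.61 for skeletal muscle and 24.3 for the hair follicle inner sheath. The sebaceous gland list reached 346 CPM. A set of predicted genes that resemble satellite repeats split the libraries: their summed level was 79.4 to 37287 CPM in the 5 systemic control libraries and systemic cKO mouse 2, and 0.839 to 42.5 CPM in the other 14. This split coincides with route among controls and nearly with genotype among the systemic mice. In these bulk samples, fewer cells of a type and less RNA per cell cannot be told apart.

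Of the 50 genes, 44 lie on chromosome 3 of the GRCm38 build, most of them in the cluster known as the epidermal differentiation complex. From one side to the other lie Lor (ENSMUSG00000043165, chr3:92080271-92083142), Sprr2a3 (ENSMUSG00000074445, chr3:92285417-92291405), Sprr1b (ENSMUSG00000048455, chr3:92436809-92438789), Sprr1a (ENSMUSG00000050359, chr3:92483952-92485895), Ivl (ENSMUSG00000049128, chr3:92570902-92573735) and Flg2 (ENSMUSG00000049133, chr3:93197278-93221391). The Sprr genes that fell in a comparison below lie between Lor and Flg2, which rose. Promoter windows of 250 bases before to 50 after the start were found in RefSeq (GRCm38.p6) for 46 genes, all but Calml3, Crct1, Lce1f and Sprr2g. The 4 promoters below belong to Lor, Flg2 and Sprr1b, which differed in the comparisons below, and to Sprr1a, the most abundant Sprr gene, which did not pass in any. Each is the 250 bases before the start, 5′ to 3′ on the gene's strand. Capitals mark matches, on either strand, to the AP-1 motif TGANTCA, the TATA box TATAAA, the KLF-type motif CCACCC, the CCAAT box and the short glucocorticoid receptor motif AGAACA. No 2 matches overlapped in these 4 promoters. The Sprr1a promoter is at chr3:92485882-92486131 and that of Sprr1b at chr3:92438780-92439029, both on the minus strand. The Lor promoter is at chr3:92083143-92083392 on the minus strand and that of Flg2 at chr3:93197023-93197272 on the plus strand.
Sprr1a: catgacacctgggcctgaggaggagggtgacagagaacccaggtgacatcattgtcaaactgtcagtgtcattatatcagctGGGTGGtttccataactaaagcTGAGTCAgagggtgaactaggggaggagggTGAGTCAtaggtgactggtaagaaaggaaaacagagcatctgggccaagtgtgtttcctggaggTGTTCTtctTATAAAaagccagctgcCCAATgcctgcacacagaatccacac
Sprr1b: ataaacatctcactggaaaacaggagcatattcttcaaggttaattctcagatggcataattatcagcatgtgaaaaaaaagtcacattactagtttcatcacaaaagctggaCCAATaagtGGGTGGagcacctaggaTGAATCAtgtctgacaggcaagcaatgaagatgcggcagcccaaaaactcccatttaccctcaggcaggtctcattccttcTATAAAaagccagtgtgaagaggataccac
Lor: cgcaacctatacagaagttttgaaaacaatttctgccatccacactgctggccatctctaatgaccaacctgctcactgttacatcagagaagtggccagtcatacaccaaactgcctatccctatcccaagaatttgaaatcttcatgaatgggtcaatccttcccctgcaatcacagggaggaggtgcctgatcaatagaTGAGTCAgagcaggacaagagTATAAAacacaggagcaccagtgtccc
Flg2: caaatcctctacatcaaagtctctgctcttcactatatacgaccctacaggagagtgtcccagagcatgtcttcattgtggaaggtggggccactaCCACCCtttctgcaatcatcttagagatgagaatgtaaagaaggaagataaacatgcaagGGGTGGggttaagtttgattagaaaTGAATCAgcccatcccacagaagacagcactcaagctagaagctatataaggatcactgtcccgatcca

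All 4 promoters hold the AP-1 motif, 2 copies in Sprr1a at 146 and 116 bases before the start and 1 in each of the others. AP-1, the Fos and Jun family of factors, is known to drive many differentiation genes of the epidermis. TGANTCA occurred in the windows of 9 of 14 Sprr genes (64.3%), 8 of 12 single genes (66.7%) and 0 of 20 Lce genes, against 8.97% of all 27025 windows. TATAAA occurred in 71.4% of Sprr, 66.7% of single and 20% of Lce windows, against 15.7% of all. CCACCC was in 35.7% of Sprr, 66.7% of single and 5% of Lce windows, against 34% of all. The glucocorticoid receptor motif AGAACA was in 28.3% of the 46 windows and 21.3% of all, the CCAAT box in 32.6% and 41.1%, and the grainyhead motif AACNGGTT in 2.17% and 2.35%. Sprr2 genes and Lce genes are each copies of one another, so their windows are not independent, and a match describes letters and not a binding site. Of the genes that differed between the knockout groups below, Flg2, Lor, Ivl and Sbsn (higher) and Sprr1b (lower) had the AP-1 motif in the window, and Tgm1, Hrnr (higher) and Sprr2a3 (lower) had none.

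The 50 genes together took 0.689 to 1.7% of the counts of a library. Krtdap (keratinocyte differentiation-associated protein), Calm4 (a skin calmodulin-like protein) and Sbsn (suprabasin), all made by cells just above the basal layer, supplied 80.2 to 98.9% of these counts. Per kilobase of exon, mean levels over the 20 libraries were 7615 CPM for Krtdap, 4734 for Calm4, 690.0 for Sprr1a, 483 for Sbsn and 272 for Sprr1b. Sprr2a3 (22.8 CPM per kilobase), Ivl (15.5), Tgm1 (4.48) and Lor (4.07) were far lower, and Flg2 (0.242), Hrnr (0.187) and Flg (0.0821) were the lowest of the tested genes on this scale. Flg2, Hrnr and Flg hold only 9055, 4559 and 8721 different 50-base stretches in 20803, 11187 and 18829 exon bases, against 1730 in 1779 for Lor. How reads from such internal repeats were counted is not given, so the levels of these genes per kilobase are uncertain. Krtdap, Calm4 and Sbsn were thus abundant in the sorted cells, while the early gene Ivl and the later Lor were far lower. Spread over the libraries differed as widely as level. Calm4 ranged over 3.32-fold and Ivl over 4.83-fold between the lowest and the highest library, whereas Sprr1b ranged over 79.7-fold and Sprr2a3 over 545.1-fold.

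**Figure D1:**
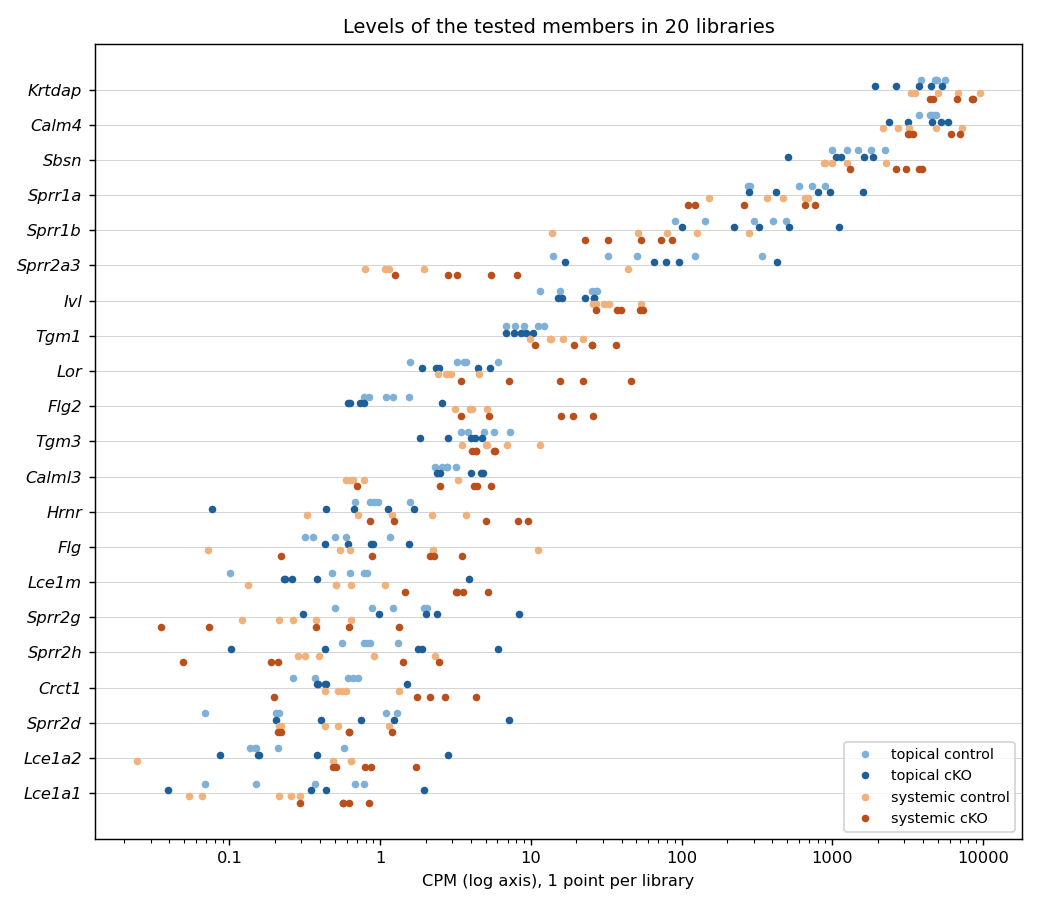
Levels of the 21 tested genes in CPM (log axis), with 1 point per library and colours for the 4 groups; 2 of the 420 values were 0 and are not drawn. Krtdap, Calm4 and Sbsn lie at the top in all libraries, Sprr2a3 is spread most widely, and orange and red (systemic) points lie to the right of the blue (topical) ones for Flg2.

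Topical tamoxifen left the family without a detectable genotype difference. None of the 21 tested genes passed between topical cKO and topical control mice, neither by edgeR nor by DESeq2 (adjusted by Benjamini-Hochberg over 12424 genes in edgeR's quasi-likelihood test, threshold 0.05). At an unadjusted p of 0.05 the count was also 0. The background was low too, 0.129% of all genes in that comparison. Log2 fold changes ran from -0.49 to 1.62 with a median of 0.29, against 0.02 over all genes. All 6 tested Sprr genes had values above 0, and 9 of 12 single genes had values below 0, while 54% of all genes were above 0. The 6 Sprr genes all peaked in topical cKO mouse 7, so their signs are not independent.

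The levels of the most abundant genes overlapped between the topical groups. Krtdap stood at 4759.7, 4953.8, 3845.1, 5579.6 and 4867 CPM in topical control mice 1, 3, 5, 6 and 7, and at 3782.9, 2627, 4532, 1916.4 and 5314.8 CPM in topical cKO mice 2, 3, 4, 5 and 7 (values below follow the same order of mice). Calm4 stood at 4532.1, 4726, 3781.5, 4452.2 and 4878.7 CPM in topical controls and 5251, 3167.6, 4568.6, 2377.8 and 5861.6 CPM in topical cKO mice. The topical controls were the tighter group, and topical cKO mouse 5 was the lowest topical library for each.

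Injected tamoxifen gave a genotype difference in Lor and Flg2. Both genes of the outermost layers were higher in systemic cKO than in systemic control mice, Lor by 6.17-fold and Flg2 by 3.44-fold, and no tested gene was lower. These 2 of 21 (9.52%) compare with 1.89% of all genes called in either direction and 1.36% called higher. Lor was measured at 2.74, 2.96, 4.54, 2.79 and 2.41 CPM in systemic control mice 1, 3, 4, 5 and 6, and at 7.13, 3.45, 22.2, 15.7 and 46.2 CPM in systemic cKO mice 2, 4, 5, 6 and 7. Systemic cKO mice 5, 6 and 7 were well above every control, mouse 2 was slightly above, and mouse 4 fell within the control range, so the groups overlapped. The log2 fold change of Lor was 2.62 (SE 0.51, adjusted p = 0.0107, edgeR).

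Flg2, a filaggrin-like S100-fused protein of the granular layer, was at 5.11, 3.12, 4.08, 3.93 and 3.96 CPM in systemic controls and 5.28, 3.45, 15.9, 19.1 and 25.9 CPM in systemic cKO mice. The same 3 knockout mice were high, mouse 2 was just above the highest control and mouse 4 within the control range. Its log2 fold change was 1.78 (SE 0.43, adjusted p = 0.0318, edgeR). Under topical treatment Lor stood at 3.23, 6.05, 1.57, 3.57 and 3.73 CPM in controls and 1.88, 5.36, 4.46, 2.45 and 2.35 CPM in cKO mice, and Flg2 at 1.56, 0.841, 1.09, 0.785 and 1.22 and 0.627, 2.59, 0.615, 0.74 and 0.784 CPM. Both pairs of topical groups overlapped, and no topical library reached the level of systemic cKO mice 5, 6 and 7 in either gene.

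Beyond Lor and Flg2, 6 genes reached an unadjusted p of 0.05 between the systemic groups but failed after adjustment, all with higher means in cKO mice. Lce1m had the clearest separation among them, with 0.132 to 1.08 CPM in systemic controls and 1.47 to 5.2 CPM in systemic cKO mice, and its groups did not overlap (log2 fold change 2.51, adjusted p = 0.0549, edgeR). Sbsn was at 2270.1, 998.3, 879.8, 1257 and 891.8 CPM in systemic controls and 1300.4, 3092.9, 3951.6, 3738.9 and 2658.3 CPM in systemic cKO mice (log2 fold change 1.23, adjusted p = 0.0803, edgeR). Knockout mice 4, 5, 6 and 7 exceeded all controls, and cKO mouse 2 lay among them. Calml3, a calmodulin-like protein of stratified epithelia, differed by a log2 fold change of 1.6 (adjusted p = 0.0717), Crct1 by 1.66 (0.126), Hrnr by 1.58 (0.203) and Tgm1 by 0.64 (0.215). For the 6 Sprr genes the log2 fold changes ran from -1.19 to 0.47 with a median of -0.17, and none passed.

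The systemic genotype calls depended on how they were tested. Fitted on the 10 systemic libraries alone, neither Lor (adjusted p = 0.0893) nor Flg2 (0.125) passed, and Lce1m did. With the log satellite-like level as a covariate no gene passed (Lor, log2 fold change 2.1, adjusted p = 0.751), in a comparison where that level is high in all controls and in 1 knockout mouse. Lor passed with any 1 of the 10 libraries left out, with a largest adjusted p of 0.0377. Flg2 did not pass without systemic control mouse 3, 4, 5 or 6 or without systemic cKO mouse 5, 6 or 7, with adjusted p-values up to 0.0939. The count rose to 5 without systemic cKO mouse 2, where Calml3, Lce1m and Sbsn joined, to 4 without systemic control mouse 1 and to 3 without systemic cKO mouse 4, and it was 1 when any single one of the 7 libraries named for Flg2 was left out.

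Whether the genotype effect differed between routes was tested by the interaction, in which 0.25% of all genes and 0 of the 21 passed by edgeR. DESeq2 called 1 of them, Lor, and 4 genes had an unadjusted p under 0.05 in edgeR. Lor came nearest, with a genotype effect larger under injection by 2.79 on the log2 scale (SE 0.72, adjusted p = 0.0841, edgeR), followed by Sbsn (1.55, adjusted p = 0.155), Flg2 (1.86, 0.199) and Tgm1 (0.76, 0.347). Lor passed without systemic cKO mouse 2 or 4, Sbsn without systemic cKO mouse 2, and Lce1m without topical cKO mouse 3. The interaction was positive for 11 of 12 single genes and negative for all 6 Sprr genes, against 47.2% positive over all genes. A route difference in the effect of genotype was thus not established for any of them.

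**Figure D2:**
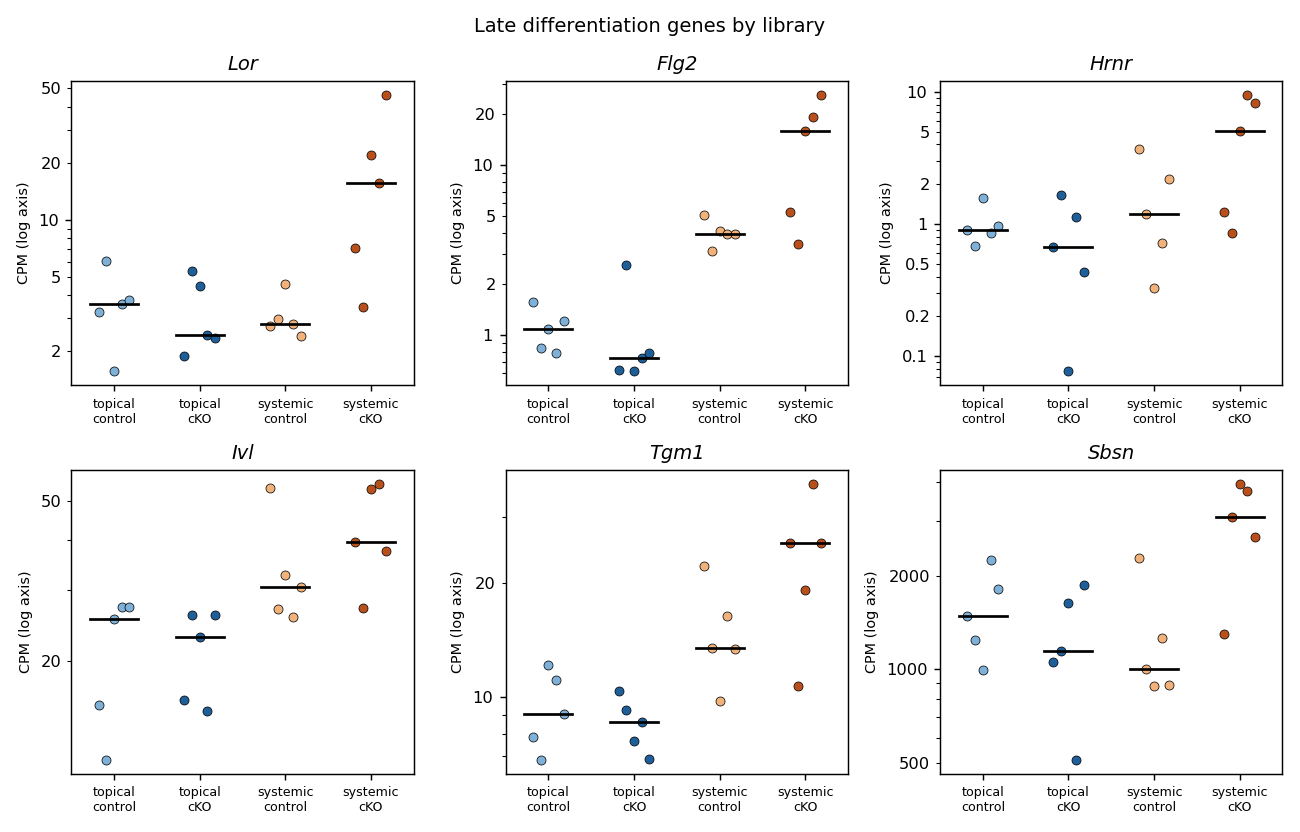
Levels in CPM (log axis) of 6 envelope and late differentiation genes, with 1 point per library and a bar at the median of each group of 5 mice. Systemic cKO mice 5, 6 and 7 carry the high values of Lor and Flg2, and all 5 systemic cKO mice lie above all 5 topical cKO mice for Flg2, Ivl and Tgm1.

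The 2 knockout groups differed far more between routes, and in opposite directions within the family. Of the 21 tested genes, 7 were higher and 3 lower in systemic than in topical cKO mice. That is 47.6% of the tested genes, against 9.22% of all genes (5.19% higher and 4.02% lower). All 7 genes that rose were single genes, 7 of 12 tested (58.3%). They were the scaffold gene Ivl, the filler Lor, the filaggrin relatives Flg2 and Hrnr, the cross-linking enzyme Tgm1, and Sbsn and Crct1. All 3 that fell were Sprr genes, 3 of 6 tested. The median log2 fold change was 1.14 for the single genes and -2.2 for the Sprr genes, against -0.01 over all genes. Each knockout library also enters a genotype comparison above, so the comparisons share samples. Summed markers of other cell types were compared between the same groups. The 6 leukocyte genes summed to 5.54 to 15.9 CPM in topical and 17 to 30.5 CPM in systemic cKO mice without overlap. Most of this was Cd74 (means 9.78 and 18.4 CPM) and H2-Aa (1.48 and 2.51 CPM). The other sums overlapped. The 6 sebaceous gland genes summed to 94.1 to 326.3 and 20 to 346 CPM, with 5 of 6 log2 fold changes below 0 (median -1). Sums were 3.25 to 24.4 and 2.5 to 6.69 CPM for the 6 fibroblast genes, and 1.08 to 3.98 and 0.75 to 2.55 CPM for the 3 endothelial genes. No gene of these 4 lists was at 0 throughout either group. None of the 2 leukocyte, 6 sebaceous gland, 4 fibroblast and 3 endothelial genes tested passed, and their part in the results was not tested.

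Flg2 showed the largest rise, 13.1-fold (log2 fold change 3.71, SE 0.48, adjusted p = 6.23e-05, edgeR). Its topical cKO values all lay at or below 2.59 CPM and its systemic cKO values at or above 3.45 CPM, so the groups did not overlap. Hrnr, hornerin, is a close relative of Flg2 in structure. It ranged from 0.0769 to 1.67 CPM in topical cKO and 0.856 to 9.49 CPM in systemic cKO mice and rose by 2.55 on the log2 scale (adjusted p = 0.0148), with overlap. Flg itself ranged from 0.431 to 1.56 CPM and from 0.22 to 3.5 CPM and did not pass.

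Lor rose 5.8-fold between these groups (log2 fold change 2.54, SE 0.51, adjusted p = 0.00302, edgeR), although systemic cKO mouse 4 lay within the topical cKO range. The early scaffold gene Ivl was at 16, 26.1, 23, 15.1 and 26.1 CPM in topical cKO mice and 39.4, 27.1, 53.3, 55.1 and 37.5 CPM in systemic cKO mice. All systemic values exceeded all topical ones, by a narrow margin at the edge (26.1 against 27.1 CPM), and the rise was 2-fold (adjusted p = 0.0165). Tgm1, the membrane-bound transglutaminase of suprabasal keratinocytes, was at 10.4, 9.28, 7.69, 8.63 and 6.88 CPM in topical cKO and 25.5, 10.7, 19.2, 36.7 and 25.6 CPM in systemic cKO mice. These groups did not overlap either, and the rise was 2.72-fold (adjusted p = 0.000977). Tgm3, its late-acting cytosolic relative, ranged from 1.83 to 4.7 CPM and from 4.06 to 5.79 CPM and did not pass.

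Among the abundant suprabasal genes, Sbsn rose and the other 2 did not pass. Sbsn stood at 1052.1, 1141.9, 1630.7, 510.7 and 1862.9 CPM in topical cKO mice, and the systemic cKO values given above were 2.38-fold higher (adjusted p = 0.0312, edgeR), with cKO mouse 2 inside the topical range. Krtdap stood at 4458.6, 8456.6, 8588, 6741.8 and 4659 CPM in systemic cKO mice and Calm4 at 3189.4, 7017, 6143.8, 3428.7 and 3203.5 CPM. Systemic cKO mice 4, 5 and 6 exceeded every topical cKO mouse in Krtdap, and mice 4 and 5 did so in Calm4. The remaining rise was that of Crct1, the cysteine-rich C-terminal gene beside the Lce cluster, with 0.383 to 1.5 CPM in topical and 0.196 to 4.3 CPM in systemic cKO mice (log2 fold change 1.8, adjusted p = 0.0455).

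The Sprr genes went the other way. Sprr1b was at 222.1, 325, 513.6, 99.9 and 1105.7 CPM in topical cKO mice and 72.9, 22.7, 32.4, 53.4 and 86.7 CPM in systemic cKO mice. Every topical value exceeded every systemic value, and the systemic mean was 8.46-fold lower (log2 fold change -3.08, SE 0.72, adjusted p = 0.00908, edgeR). Sprr2a3 was at 65.2, 78.9, 95.5, 16.8 and 430.6 CPM in topical cKO mice and 5.46, 8.14, 3.23, 1.26 and 2.81 CPM in systemic cKO mice, again without overlap and 32.2-fold lower (log2 fold change -5.01, SE 1.33, adjusted p = 0.0255). Sprr2g, at 0.306 to 8.36 CPM in topical and 0.0351 to 1.33 CPM in systemic cKO mice, was 6.28-fold lower with overlap (adjusted p = 0.0386).

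Sprr1a, the most abundant of the family, did not pass in any comparison. It was at 422.5, 802.5, 957.5, 281.4 and 1600 CPM in topical cKO mice and 771.8, 122.6, 110.7, 662.9 and 258.1 CPM in systemic cKO mice, and at 285.2, 599.5, 276, 732.4 and 897.3 CPM in topical and 685.3, 370.2, 662.7, 471.4 and 152.6 CPM in systemic controls. Within every group its values spread by more than 3-fold, and systemic cKO mice 2 and 6 lay inside the topical range. Sprr2d and Sprr2h had log2 fold changes below 0 as well, without passing. Topical cKO mouse 7 was the highest of all 20 libraries for each of the 6 tested Sprr genes and for 11 of the 14 Sprr genes that reached 3 counts anywhere.

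**Figure D3:**
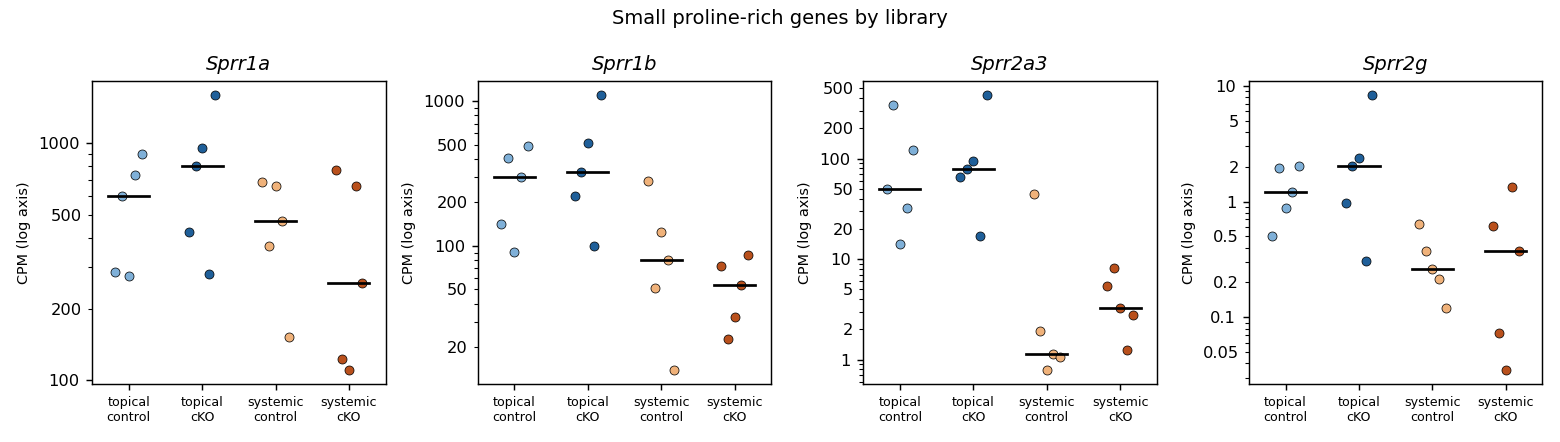
Levels in CPM (log axis) of 4 Sprr genes, with 1 point per library and a bar at the median of each group of 5 mice. Sprr1b and Sprr2a3 of the topical cKO mice lie above those of all systemic cKO mice, and systemic control mouse 1 stands apart in Sprr2a3 at 44 CPM.

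A comparison within each library, chosen after the values were seen and given without a test, restates the calls of Sprr1b and Ivl above. The log2 ratio of Sprr1b to Ivl in CPM was 2.72 to 5.4 in topical cKO and -0.72 to 1.21 in systemic cKO mice, so Sprr1b exceeded Ivl in all 5 topical libraries and in 2 of the systemic ones. In controls the ratio ran from 1.83 to 5.15 under topical and from -1.14 to 2.37 under systemic treatment. The log2 ratio of Sprr1a to Ivl overlapped between the knockout groups, with 4.22 to 5.94 in topical and 1.05 to 4.29 in systemic cKO mice.

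Flg2, Lor, Hrnr, Tgm1 and Sprr1b passed in the knockout route comparison with any 1 library left out and under all 7 other settings. Sprr2a3 did not pass without topical cKO mouse 7 (adjusted p = 0.0664) or without systemic cKO mouse 5, 6 or 7, and the count of genes was lowest, at 6, without systemic cKO mouse 5. Without systemic cKO mouse 2, the one knockout library with the satellite-like signal, 8 genes passed, and Crct1 and Sprr2g did not. The calls of Crct1 and Sprr2g were the least stable: Crct1 was lost in 3 of 7 settings and 8 of 10 fits with a library left out, and Sprr2g in 4 and 6. Sbsn was lost in 2 settings and 5 such fits, and Ivl in 1 setting and 2 such fits.

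In control mice the route comparison gave 1 call among the 21 genes (4.76%), against 18.3% of all genes. Flg2 was higher in systemic than in topical controls, 3.61-fold (log2 fold change 1.85, SE 0.47, adjusted p = 0.00985, edgeR), and the values given above did not overlap, with 0.785 to 1.56 CPM against 3.12 to 5.11 CPM. Ivl, at 15.6, 11.4, 25.4, 27.3 and 27.2 CPM in topical and 53.8, 27, 32.8, 25.7 and 30.5 CPM in systemic controls, and Tgm1, at 7.87, 6.84, 12.2, 11.1 and 9.02 and 22.3, 13.5, 9.81, 16.4 and 13.4 CPM, had higher means under injection without passing (adjusted p = 0.0746 and 0.0655). Both pairs of groups overlapped.

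Sprr1b of the controls was at 142.7, 404.1, 90.4, 300.1 and 491 CPM under topical and 278.5, 51.3, 125.7, 79.9 and 13.9 CPM under systemic treatment. Sprr2a3 was at 50.3, 340.8, 14, 32.3 and 122.7 and 44, 1.94, 0.79, 1.14 and 1.07 CPM (log2 fold change -3.53, SE 1.24, adjusted p = 0.0574, edgeR). Systemic control mouse 1 lay inside the topical range of both genes, and the other 4 systemic controls lay below all topical controls in Sprr2a3. Without that mouse 4 genes passed, with Sprr2a3, Sprr1b and Calml3 lower under injection beside Flg2. The count was 2 without topical control mouse 5 (Sprr2a3 added), systemic control mouse 4 (Tgm1 added) or systemic control mouse 5 (Flg added). Systemic control mouse 1 carried the highest Flg of all libraries, 11.1 CPM against 0.0715 to 2.24 CPM in the other systemic controls. Krtdap (9577.5, 3553.8, 5055.6, 6822.9 and 3317.6 CPM), Calm4 (7230.1, 2179.7, 3203.8, 4891.9 and 2727.2 CPM) and Sbsn overlapped between the control groups, and the same mouse was the highest systemic control for each. In topical controls Sbsn was at 1482, 1243.1, 993.8, 2248.2 and 1809.1 CPM.

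**Figure D4:**
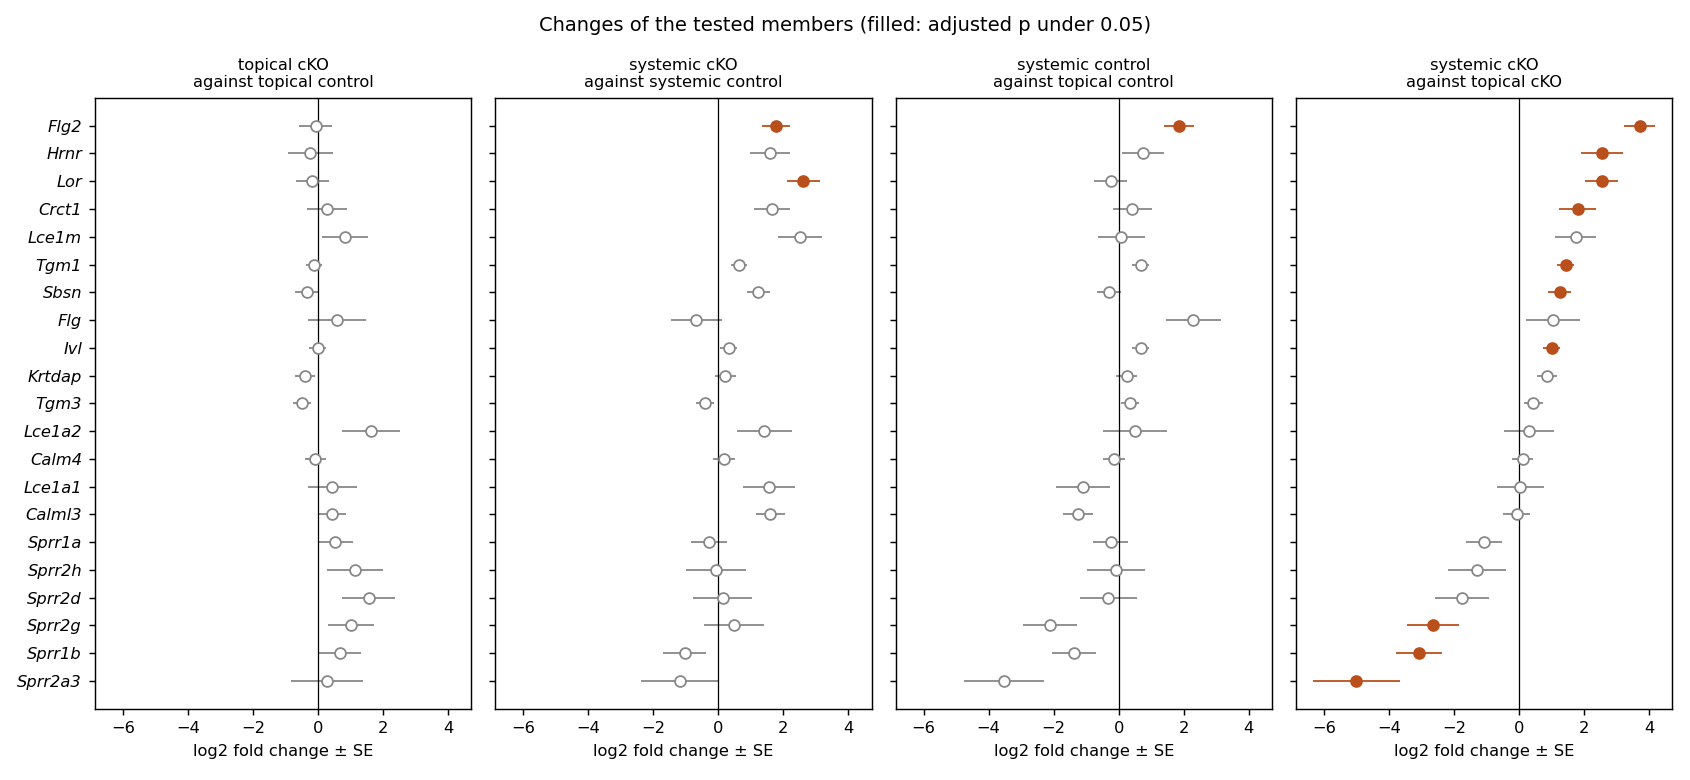
Log2 fold changes with SE of the 21 tested genes in 4 comparisons, with filled points where the adjusted p is under 0.05, ordered by the comparison of the knockout groups. No point is filled in the topical genotype comparison, and the knockout route comparison has 7 filled points above 0 and 3 below, all 3 of them Sprr genes.

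The Lce genes were close to the limit of detection. All 21 together collected 2027 counts over the 20 libraries, against 296201 for the 15 Sprr genes, and 18 reached 3 counts in at least 1 library. Lce1m (1.36 CPM on average), Lce1a2 (0.55) and Lce1a1 (0.43) were the only ones tested, and none passed in any comparison of the main edgeR fit. Lce1m passed between the systemic groups under some other settings. The summed Lce level was 2.64 ± 1.28 CPM in topical controls, 5.84 ± 8.7 in topical cKO, 2.79 ± 1.12 in systemic controls and 8.57 ± 4.42 in systemic cKO mice (SD, n = 5 each).

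Single libraries dominated these sums. Topical cKO mouse 3 had 21.3 CPM where the other topical cKO mice had 0.692 to 3.11 CPM, and it was the highest library for 11 of the 18 detected Lce genes. Systemic cKO mouse 5 followed at 15.6 CPM and was the highest for 4 more. Its group was the only one with all libraries at or above 3.35 CPM. The Lce peak in topical cKO mouse 3 and the Sprr peak in topical cKO mouse 7 thus lay in different mice of the same group.

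**Figure D5:**
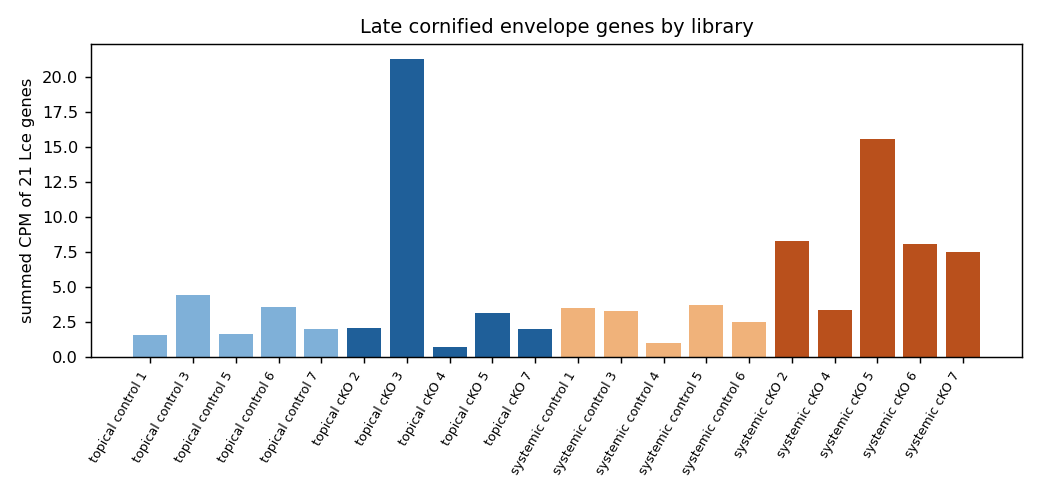
Summed CPM of the 21 Lce genes in each of the 20 libraries, coloured by group. Topical cKO mouse 3 (21.3 CPM) and systemic cKO mouse 5 (15.6 CPM) stand out, and the other 18 lie at or below 8.28 CPM.

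Some of these genes are near-identical copies. By GENCODE exon sequence, 96.3% of the 50-base stretches of Sprr2a1, 96.5% of Sprr2a2 and 61.1% of Sprr2a3 recur in another gene, mostly one another. The respective shares are 9.12 to 27.1% for Lce1a1 to Lce1l and 12.1 to 49.3% for the Lce3 genes. How reads that match several genes were counted is not given in the sources used here, so the split of counts among these copies is uncertain. Sprr1a, Sprr1b, Sprr2g, Lor, Flg2, Hrnr, Tgm1 and Lce1m share no such stretch with another gene, although Flg2 and Hrnr repeat stretches within themselves.

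Other genes of cornification, a list of 29 with 25 tested, were compared in the same way. The list holds cell adhesion, envelope plaque, lipid barrier and protease genes and the suprabasal keratins Krt1, Krt10, Krt2 and Krt77. In systemic against topical cKO mice 12 of 25 were higher and 0 lower, with a median log2 fold change of 0.93, against 5.19% of all genes called higher. Named after their values were seen, these included Spink5, an inhibitor of skin proteases (log2 fold change 2.21, adjusted p = 3.01e-05), Klk5, one of those proteases (2.41, 0.000258), and Ppl, periplakin of the envelope plaque (1, 0.000331). In systemic cKO against systemic control mice 3 of 25 were higher and 0 lower, against 1.36% of all genes called higher. Cdsn, corneodesmosin, which holds corneocytes together, had a log2 fold change of 1.79 (adjusted p = 0.00728), Spink5 of 1.2 (0.0141) and Kprp, keratinocyte proline-rich protein, of 1.59 (0.0313). None passed in the interaction. None passed in the topical genotype comparison either, where 21 of 25 had values below 0 (median -0.21), while 54% of all genes were above 0. The list sums did not overlap, with 38351 to 45308 CPM in topical control and 18645 to 35908 CPM in topical cKO mice. Keratins made up most of these sums. In topical controls Krt10, Krt2, Krt1 and Krt77 averaged 15098, 11127, 8255 and 4323 CPM, of a mean sum of 41356.5 CPM. Ppl and Spink5 were higher in systemic than in topical controls, 2 of 25 against 18.3% of all genes called. The count of 12 between the knockout groups became 7 without topical cKO mouse 5.

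Of 25 regulators of differentiation, Notch1 was higher in topical cKO than in topical control mice (log2 fold change 1.52, SE 0.27, adjusted p = 0.0104, edgeR), the only one called for genotype. Its group means were 114 ± 35.2 CPM in topical control, 328 ± 110 in topical cKO, 168 ± 40.7 in systemic control and 198 ± 66.1 in systemic cKO mice (SD, n = 5 each). Grhl1 (0.77, adjusted p = 0.0114) and Fosl2 (0.62, adjusted p = 0.0315) were higher in systemic than in topical cKO mice. These 2 of 25 compare with 9.22% of all genes called there in either direction and 5.19% called higher. In controls 4 regulators were higher and 2 lower under injection, against 18.3% of all genes called. The counts between the knockout groups and in controls are thus near the background. None of 9 basal keratinocyte genes passed between the knockout groups (median log2 fold change 0.03). Of 4 spinous genes, Dsc1 and Dsg1a, which also count among the cornification genes above, were higher in systemic than in topical cKO mice. Between the control groups, 1 of 9 basal genes (Krt15, log2 fold change 1.25) and 1 of 3 melanocyte genes tested (Pmel, 0.77) were higher under injection, against 18.3% of all genes called in either direction. In topical cKO against topical control mice all 4 spinous genes had values below 0 (median log2 fold change -0.65), while 54% of all genes were above 0, and none passed. Of 10 genes known to respond to tissue dissociation, Fos, Fosb, Egr1 and Ier2 were higher in systemic than in topical cKO mice (4 of 10, against 5.19% of all genes called higher), with list sums of 21498 to 39305 CPM in topical and 34740 to 59883 CPM in systemic cKO mice. Fos, Egr1, Atf3 and Hspa1a were higher in systemic than in topical controls (4 of 10, against 18.3% of all genes called in either direction), with sums of 29166 to 64148 against 20326 to 38890 CPM, and Fosb in systemic cKO against systemic control mice. No gene of the list was at 0 in any group. The part of this response in the differences above was not tested.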

How the data were processed

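RNA of sorted keratinocytes from 20 mice was sequenced as SmartSeq II libraries, per the labels' protocols. The authors deposited raw counts, that is, whole-number reads per gene without normalization. STAR, featureCounts and GRCm38 (mm10) are named in the submitters' processing notes, and versions, strand setting and treatment of multi-mapped reads are not given in the sources used here. All 20 libraries were fitted together in edgeR 4.0.16 (R 4.3.3) with TMM normalization, filterByExpr (minimum count 10, minimum total 15), robust quasi-likelihood dispersion and 1 coefficient per group. Two-sided p-values were adjusted by Benjamini-Hochberg over 12424 genes. CPM are counts scaled to 1 M of the TMM-adjusted library total, also in sums over lists, except that the satellite-like level uses the unscaled total. Detection limits (3 counts) cover counting error only, as no molecular identifiers are described. SDs and SEs reflect the spread between mice. DESeq2 1.42.0 was an alternative. The code was tested on simulated data.

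Per-library values are given for genes called for genotype and for the 8 most abundant. Other genes named are the single genes of the rule, the most abundant Lce and Sprr genes and genes called in any comparison. The members and lists were chosen with earlier results of these data known. Each library is 1 mouse. Coordinates and exon lengths are from GENCODE and promoters from RefSeq.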

Additional observations from a re-analysis of the deposited data

Results flagged for a closer look

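In groups of 5 mice, gaps between libraries were measured on log2 CPM. A library was singled out where its gap to the nearest of the others exceeded 0.71 of the group's range on that log2 scale (Dixon's criterion, which chance meets in about 5% of groups). Of 84 groups of the 21 tested genes 7 met it, all with 1 high library. In systemic control mouse 1, Sprr2a3 was at 44 CPM against 0.79 to 1.94 CPM in the other systemic controls, Calml3 at 3.26 CPM against 0.593 to 0.786 CPM, and Crct1 at 1.34 CPM against 0.429 to 0.593 CPM. In topical cKO mouse 3, Lce1m was at 3.86 CPM against 0.231 to 0.383 CPM in the other topical cKO mice, Flg2 at 2.59 CPM against 0.615 to 0.784 CPM, and Crct1 at 1.5 CPM against 0.383 to 0.436 CPM. In topical control mouse 6, Lce1a2 was at 0.571 CPM against 0.137 to 0.21 CPM. These 7 values came from 3 mice.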

How the results depend on the processing

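The number of tested genes called was recomputed under 7 other settings and with each library left out. Between the knockout groups (10 called) it ran from 7 to 11 over the settings and from 6 to 10 with a library left out. In the topical genotype comparison it was 0 throughout. For systemic genotype (2 called) it was 5 with DESeq2's Wald test, 1 without the filter on low counts, 1 with the compared groups alone, 0 with the satellite-like covariate, 5 with the mitochondrial share as covariate, and 1 to 5 with a library left out. For the interaction (0 called) it was 1 with DESeq2's Wald test, 1 with the mitochondrial covariate, and 0 to 2 with a library left out. For route in controls (1 called) it was 5 with DESeq2's Wald test, 3 with the compared groups alone, 3 with the mitochondrial covariate, and 1 to 4 with a library left out. With the replicate number as a block the counts were 5 for systemic genotype and 4 for route in controls, 7 between the knockout groups, and 0 for topical genotype and the interaction. Deviations of same-numbered mice correlated at -0.31 to 0.34. Mice with different numbers were not compared in this way, so whether the numbers pair the mice cannot be decided. The main fit treated the mice as unpaired.

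Of 579 recomputed gene values, 489 stayed on their side of the threshold, 47 lost and 42 gained a call, and 1 changed sign. That was Calml3 between control groups, from a log2 fold change of -1.25 to 0.1 with the satellite-like covariate. The causes of these shifts were not tested. Genes under 1 CPM rest on few counts, so their differences were detectable only when large.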
